A study of Homo sapiens with 6 samples.

Results

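The genes described here are 10 chemokine and cytokine genes of inflammation, measured in the human prostate cancer cell line PC-3 transduced with a control vector or with an inducible vector for the RNA-binding protein tristetraprolin (TTP). They are the neutrophil-attracting CXC chemokines IL8, CXCL1, CXCL2, CXCL3 and CXCL5, the CC chemokine CCL20, the cytokines IL6, IL1A and IL1B, and LIF. They were matched by symbol in the deposited table, which carries 22933 gene symbols, and all 10 were found. The rule that matched them does not use their values, but the genes were chosen with earlier results of these data known. PC-3 is an established line, and every cell used here carried a retroviral Tet-On transactivator under G418 selection. The tdTom group had another retrovirus that encodes the red fluorescent protein tdTomato from a PGK promoter. The TTP-tdTom group had the same vector with TTP added behind the doxycycline-responsive promoter. Cells were sorted for tdTomato, 3 samples per group were collected, and both groups received 300 ng/ml Dox for 4 hours, so that Dox itself was shared. The transduced populations come from 1 parental line, and nothing in the sources used here says whether the 3 samples of a group were separate transductions.

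TTP, the product of ZFP36, is a zinc finger protein that binds AU-rich elements in the 3′UTR of mRNAs and recruits the machinery that shortens their poly(A) tails, so that bound mRNAs decay. The mRNAs of many chemokines and cytokines carry such elements, which keep them short-lived after an inflammatory signal. IL-8 and the CXCL chemokines listed here act on CXCR1 and CXCR2 to attract neutrophils and to promote angiogenesis, and tumor cells, including prostate cancer cells, can secrete them.

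For each assembled locus, a single FPKM per group was deposited, that is, the fragment number scaled to transcript length and to library size. Because the 3 samples of a group were already pooled, neither the spread between samples nor the number of reads behind a value is known. No test could be run on any of the differences below, and each is a description of 2 group values. In bulk RNA, a lower level in every cell and a smaller share of cells with the mRNA cannot be told apart. A fold change is the log2 of TTP-tdTom over tdTom, so that a negative value means less mRNA in the group labelled TTP-tdTom. A gene counted as expressed when the mean of its group values was at least 1 FPKM. Lower and higher give the sign of the log2 fold change of TTP-tdTom over tdTom, and differences of at least 2-fold were counted separately.

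ZFP36 itself, at chr19:39897487-39900052, had an FPKM of 5.56 in tdTom and 5.54 in TTP-tdTom. The locus did not set the groups apart, so the values do not check which group received TTP. Whether transcripts of the transgene can be counted at this locus was not tested, and every direction below rests on the labels. As a check of the cell type, the epithelial genes KRT7, KRT8, KRT18, KRT19 and EPCAM lay between 15.1 and 125 FPKM in both groups. CDH1, the other epithelial marker, had 0.210 FPKM in tdTom and 0.282 in TTP-tdTom on its own strand. Of 6 leukocyte markers none was at 0. The pan-leukocyte gene PTPRC had 0.243 FPKM in tdTom and 0.566 in TTP-tdTom, and 5 of the markers summed to 6.06 and 6.29 FPKM, most of it LYZ. CD68, the remaining marker, had 323 and 262 FPKM on a row that carries 6 symbols, among them EIF4A1. The part of other cells in the results was not tested.

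The sequences that TTP is known to bind are shown first, because they are what these mRNAs share. The core of an AU-rich element is the pentamer AUUUA, and the heptamer UAUUUAU, which contains it, is close to the site that TTP prefers. Both were counted gene by gene, in the longest 3′UTR that GENCODE release 29 annotates on GRCh38. Stretches of 30 bases with the most heptamers, overlapping copies included, are given for 5 mRNAs that range from 1 heptamer to the highest number among the 10 genes. Capitals mark the bases that belong to a heptamer.
IL8: aaccUAUUUAUUAUUUAUgUAUUUAUuuaa
CXCL1: aagucuucUAUUUAUUUAUUUAUucauuag
CXCL2: cuucUAUUUAUUUAUUUAUUUAUUUAUuug
IL1B: cgcuucccUAUUUAUUUAUUUAUuuguuug
CCL20: uguauuuuauguUAUUUAUagcuguagguu

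All 10 mRNAs held at least 1 heptamer, against 31.1% of 19127 protein-coding genes, and 9 held 3 or more, against 6.01%. CXCL2 had 8 heptamers, 5 of them overlapping in the stretch above. LIF had 5, IL8, CXCL1 and IL1B had 4 each, and CXCL3, CXCL5, IL6 and IL1A had 3 each. CCL20, with 1, had the fewest. Per length the order of the genes was another. The density of AUUUA was 14.0 per kilobase in IL6 and 13.9 in CXCL2, 7.19 in IL8, 7.08 in CXCL1 and 2.18 in LIF, beside a median of 1.48 over all genes. The gene set therefore carries AU-rich sequence in every member, at densities that differ several-fold.

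IL8, which encodes the neutrophil chemoattractant IL-8 (CXCL8), was the most abundant of the 10 mRNAs and the one with the largest difference among those expressed. At chr4:74606223-74609433 (GRCh37) it had 61.4 FPKM in tdTom and 11.8 FPKM in TTP-tdTom, a log2 fold change of -2.38, so that 19.2% of the control level was left. Of 12511 expressed gene symbols, 24 had a lower fold change. CXCL1, a close relative that signals through CXCR2, came next. At chr4:74735109-74737019 it had 34.4 FPKM in tdTom and 10.6 FPKM in TTP-tdTom, a log2 fold change of -1.70, with 30.8% left. The number of symbols with a lower fold change than CXCL1 was 108.

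These 2 chemokines made up most of the mRNA of the group. The summed level of the 10 genes was 108.8 FPKM in tdTom and 32.6 FPKM in TTP-tdTom, and IL8 with CXCL1 accounted for 88.1% and 68.8% of it. Their balance also differed between the groups. IL8 stood 1.79 times above CXCL1 in tdTom and 1.11 times above it in TTP-tdTom. Whether that shift exceeds the spread between samples is not known.

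**Figure D1:**
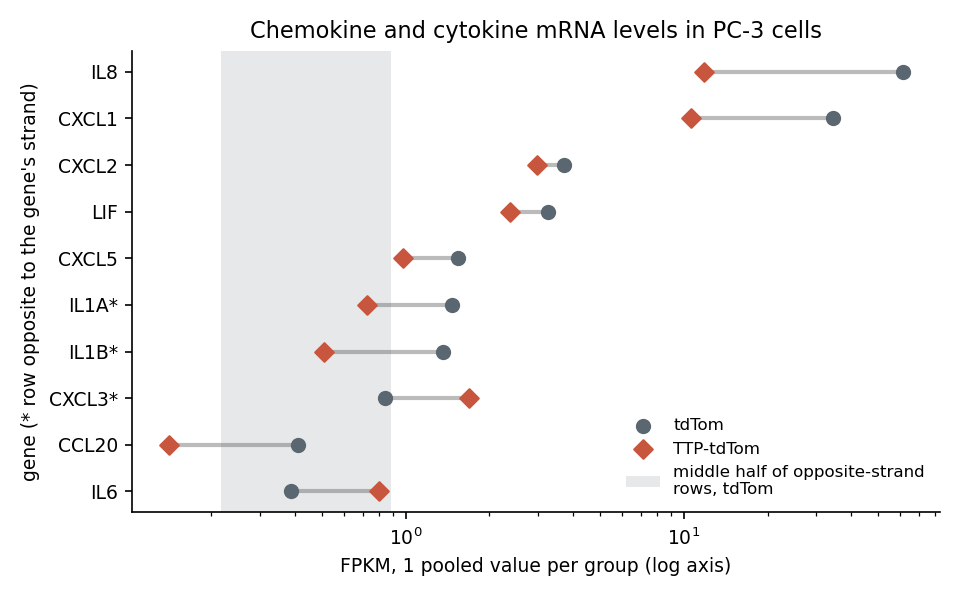
FPKM of the 10 genes on a log axis, with circles for tdTom and diamonds for TTP-tdTom, 1 pooled value per group; the band spans the middle 50% of rows on the strand opposite to a gene in tdTom (0.216 to 0.885 FPKM), and asterisks mark genes whose row lies on that strand. IL8 and CXCL1 stand above 10 FPKM in both groups, whereas the other 8 genes lie at or below 3.70 FPKM.

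CXCL2, CXCL3 and CXCL5 were far less abundant, and on the rows used none of them was lower by 2-fold. CXCL2, which encodes another CXCR2 ligand, had 3.70 FPKM in tdTom and 2.96 FPKM in TTP-tdTom at chr4:74962754-74965364, a log2 fold change of -0.32. CXCL5, also a CXCR2 ligand, had 1.54 and 0.978 FPKM at chr4:74861359-74864416, a log2 fold change of -0.66. CXCL2 is thus close to the median of all expressed symbols, and 40.4% of them were lower. With the groups scaled to the same upper quartile, CXCL2 changed sign to 0.07.

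CXCL3 needs its strand read with its value. The libraries were strand-specific, and the rows of the table run along each chromosome once per strand, an order that matched the annotated strand for 99.5% of 16165 symbols with a single row. By that order, the rows that the rule picked for CXCL3, IL1A and IL1B lie on the strand opposite to the gene. The CXCL3 row used, at chr4:74901685-74904490, had 0.846 FPKM in tdTom and 1.69 FPKM in TTP-tdTom, a log2 fold change of 1.00. The row on the strand of CXCL3 had 1.05 and 1.13 FPKM, a log2 fold change of 0.11. Rows opposite to an annotated gene, 6369 in all, had a median of 0.483 FPKM in tdTom and 0.637 in TTP-tdTom. Neither row of CXCL3 stands above the 95th percentile of such rows, which was 2.25 FPKM for the mean of the groups.

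Reads can also be shared between near-identical mRNAs, which bears on CXCL1, CXCL2 and CXCL3. For each gene the transcript with the longest 3′UTR was compared. Those of CXCL1 and CXCL2 were 90.5% identical over 1086 aligned bases, those of CXCL2 and CXCL3 83.3% and those of CXCL1 and CXCL3 81.7%. Stretches of 75 bases, the length of 1 read, were nevertheless rarely identical. They made up 0.293% of those in CXCL1 when set against CXCL2 and 2.01% of those in CXCL2 when set against CXCL3, and none was shared between CXCL1 and CXCL3. IL8 shared no such stretch with CXCL1, CXCL2, CXCL3 or CXCL5. Only exact identity was counted, and reads that align with mismatches were not examined.

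**Figure D2:**
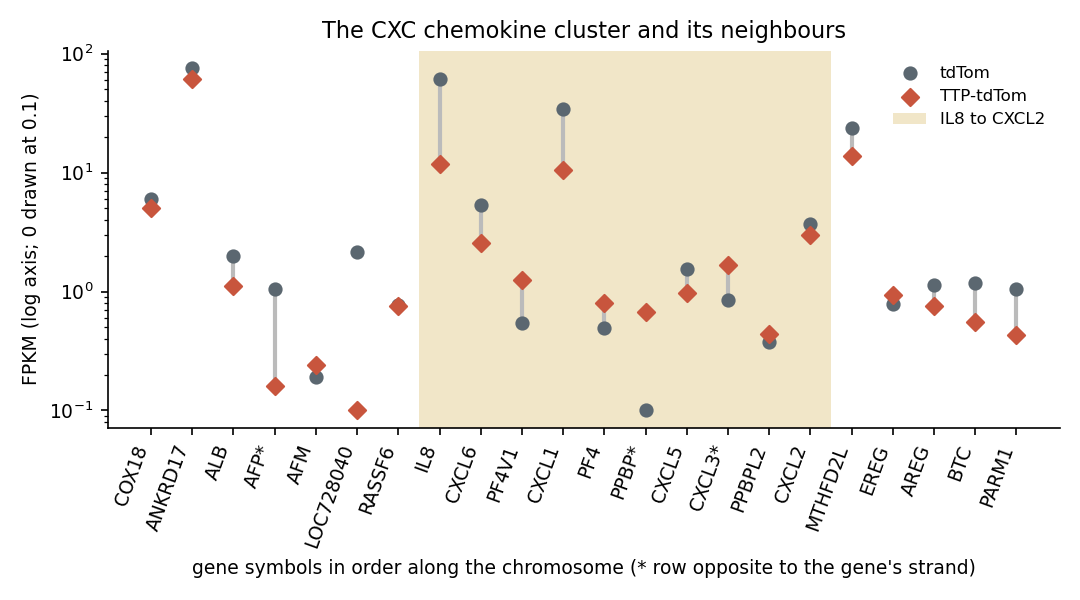
FPKM (log axis, with 0 drawn at 0.1) of gene symbols in their order along chromosome 4, with circles for tdTom and diamonds for TTP-tdTom and the stretch from IL8 to CXCL2 shaded; asterisks mark rows on the strand opposite to the gene. Among the expressed genes of the cluster, IL8, CXCL6 and CXCL1 have the lowest log2 fold changes, at -2.38, -1.07 and -1.70. CXCL3 goes the other way, at 1.00 on a row opposite to the gene.

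All 5 CXC members lie within 359142 bases of chromosome 4, a cluster that arose by gene duplication. Besides IL8 and CXCL1, another gene of the cluster was lower by more than 2-fold. CXCL6, whose product binds CXCR1 and CXCR2, lies between IL8 and CXCL1 and had 5.39 FPKM in tdTom and 2.57 FPKM in TTP-tdTom. The 3 genes that were at least 2-fold lower in the cluster are therefore IL8, CXCL6 and CXCL1, beside 8.3% of expressed symbols. They are neighbors on the plus strand apart from PF4V1. CXCL6 was no longer 2-fold lower when centred on the median of expressed symbols, with the same upper quartile or with a pseudocount of 1. PF4V1 and PF4, of the platelet factor family, were below the filter, at 0.549 and 0.493 FPKM in tdTom and at 1.24 and 0.794 FPKM in TTP-tdTom. Of 12 symbols within 1000000 bases on either side of the cluster, 4 were expressed with a value in both groups, and their log2 fold changes ran from -0.83 to -0.26. ANKRD17 had 75.9 FPKM in tdTom and 61.0 in TTP-tdTom, a log2 fold change of -0.32, and MTHFD2L had 23.8 and 13.7 FPKM, a log2 fold change of -0.80. The other 8 were below the filter or at 0 in a group, and some of them differed more. AFP had 1.06 and 0.161 FPKM on a row opposite to the gene, and LOC728040 had 2.14 FPKM in tdTom and was at 0 in TTP-tdTom. The 139 loci without a symbol inside the cluster had medians of 0.536 and 0.689 FPKM and 95th percentiles of 2.42 and 3.27 FPKM, and their maxima, 28.9 and 10.7 FPKM, came near the values of CXCL1. CXCL5 and CXCL3 were below these percentiles in both groups, and CXCL2 was above the first and below the second.

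The cytokines and CCL20 had low levels, and IL6, IL1B and CCL20 were below the filter. IL6, which signals through gp130 in acute-phase responses, had 0.386 FPKM in tdTom and 0.804 FPKM in TTP-tdTom at chr7:22766766-22771621. CCL20, the ligand of CCR6, had 0.409 and 0.141 FPKM at chr2:228678558-228682280. These values correspond to log2 fold changes of 1.06 and -1.54. They are no higher than the middle range of rows opposite to a gene, which reached 0.885 FPKM in tdTom and 1.08 FPKM in TTP-tdTom, and are not read as differences. LIF, a cytokine of stem cell maintenance that acts through LIFR and gp130, was more abundant. It had 3.25 FPKM in tdTom and 2.38 FPKM in TTP-tdTom at chr22:30636436-30653726, a log2 fold change of -0.45.

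IL1A and IL1B, the alarm cytokines that bind the IL-1 receptor, lie side by side on chromosome 2. The row used for IL1A, at chr2:113531492-113542971 and opposite to the gene, had 1.47 FPKM in tdTom and 0.726 FPKM in TTP-tdTom, a log2 fold change of -1.02. On the strand of IL1A the values were 0.520 and 0.477 FPKM, a log2 fold change of -0.13, so that the 2-fold difference did not remain. For IL1B, at chr2:113587337-113595136, the row used had 1.36 and 0.508 FPKM, a log2 fold change of -1.42. The row on the strand of IL1B had 1.24 and 0.572 FPKM, a log2 fold change of -1.11. Another row of IL1B, opposite to the gene, was at 0 in tdTom and had 1.10 FPKM in TTP-tdTom. IL1B was thus lower on 2 of its 3 rows, and with the rows summed its log2 fold change was -0.25. The 21 loci without a symbol between the starts and ends of these 2 genes had medians of 0.580 FPKM in tdTom and 0.365 in TTP-tdTom, 95th percentiles of 3.00 and 1.63 and maxima of 30.7 and 1.66. Every row of IL1A and IL1B was below these 95th percentiles and below the 2.25 FPKM given above for rows opposite to a gene. CKAP2L, a mitotic spindle gene next to IL1A, had 30.1 FPKM in tdTom and 13.2 FPKM in TTP-tdTom, a log2 fold change of -1.19. Over the expressed symbols within 1000000 bases of these genes, log2 fold changes ran from -1.55 (SLC35F5) to 0.22 (PAX8).

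Counted together, 7 of the 10 genes passed the filter on low values and IL6, IL1B and CCL20 did not. Of the 7, 6 were lower in TTP-tdTom, beside 79.9% of expressed symbols that were lower at all. At least 2-fold lower were 3 of the 7 (IL8, CXCL1 and IL1A), beside 8.3% of expressed symbols, and 2 of 6 when each gene was read on its own strand. IL1A and CXCL5 passed the filter only through tdTom and CXCL3 only through TTP-tdTom, in each case the group with the higher value, so the filter partly fixes their direction in these counts. None of the 7 was at least 2-fold higher, beside 1.22%. CXCL3, on a row opposite to the gene, was just short of it at 0.996. Its log2 fold change was 1.23 when centred on the median, 1.05 with the same sum and 1.39 with the same upper quartile, each beyond 2-fold. With the 3 genes below the filter added, 8 of 10 were lower, 5 of them at least 2-fold, and IL6 was at least 2-fold higher. These counts include IL6 and CCL20, whose values are not read as differences. Because the genes were chosen with earlier results of these data known, all counts of members here are descriptions only. With no filter, 63.8% of 20805 symbols were lower at all, 8.52% were at least 2-fold lower and 7.25% at least 2-fold higher. Over all expressed symbols the median log2 fold change was -0.24, and the 5th and 95th percentiles were -1.17 and 0.33. The median of the 7 genes, -0.66, is the value of CXCL5 and has the same limit. For all 10 it was -0.84, beside -0.15 for all symbols with no filter. Relative to the median of all symbols, the log2 fold change was -2.14 for IL8, -1.46 for CXCL1, -0.42 for CXCL5, -0.21 for LIF and -0.08 for CXCL2.

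**Figure D3:**
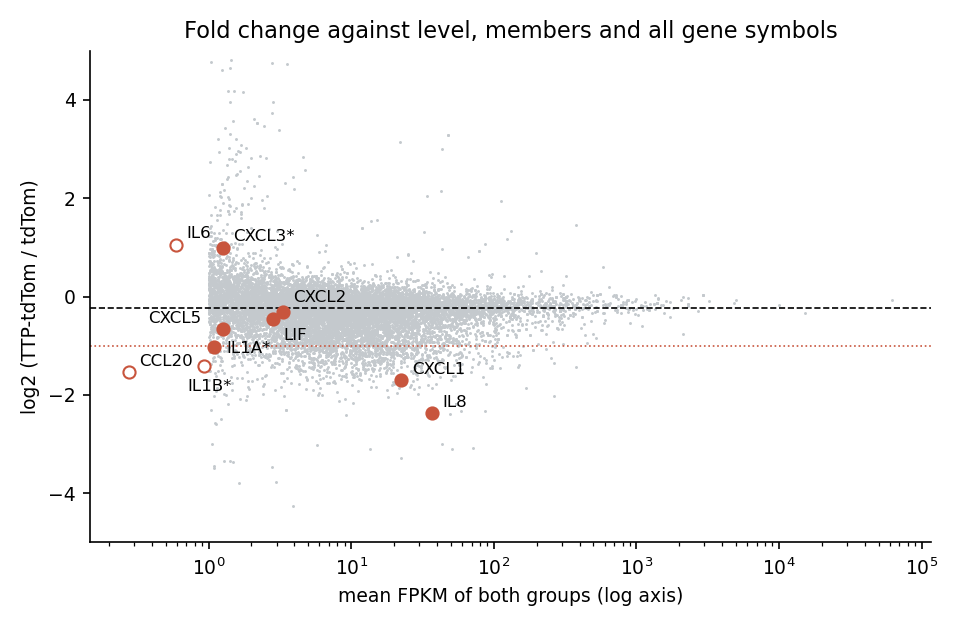
Log2 fold change (TTP-tdTom over tdTom) against the mean FPKM of both groups (log axis) for expressed gene symbols (grey; 10 symbols lie beyond the vertical axis) and for the 10 genes (filled if expressed, open if below 1 FPKM, asterisk if the row is opposite to the gene). The dashed line is the median of -0.24 and the dotted line marks 2-fold lower; IL8 and CXCL1 lie well below it at levels above 20 FPKM, and the remaining genes lie below 5 FPKM, where the grey points spread to both sides.

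The log2 fold changes were also set beside those of all symbols of a like level. The percentiles below are spreads over genes, those that differ between the groups included. They do not measure the scatter between samples. Among symbols with a mean of 1 to 2 FPKM, where CXCL3, CXCL5 and IL1A lie, the 5th and 95th percentiles of the log2 fold change were -1.05 and 1.13. From 2 to 5 FPKM, where CXCL2 and LIF lie, they were -1.07 and 0.34. From 20 to 100 FPKM, where IL8 and CXCL1 lie, they were -1.23 and 0.10. IL8 and CXCL1 were thus lower than the 5th percentile of genes of their own level, whereas CXCL2, CXCL3, CXCL5, IL1A and LIF lay between the percentiles of theirs.

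The number of AU-rich heptamers did not order the fold changes. CXCL2 had the most heptamers and, on the rows used, the smallest difference among the expressed genes, and its densest stretch, printed above, holds more of them than those of IL8 and CXCL1. IL8 and CXCL1 had 4 each and the lowest fold changes of the expressed genes, while LIF had 5 and a log2 fold change of -0.45. With 10 genes, most of them near the floor of detection, no relation was computed.

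**Figure D4:**
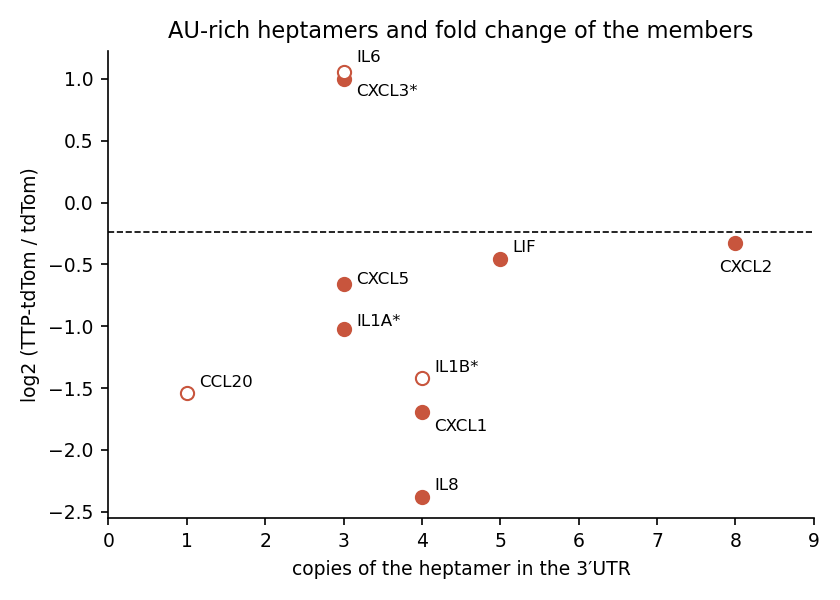
Number of UAUUUAU copies in the 3′UTR (horizontal) against log2 fold change (vertical) for the 10 genes, filled if expressed and open if below 1 FPKM, with asterisks for rows opposite to the gene; the dashed line is the median of all expressed symbols. CXCL2 with 8 copies lies near that line, and IL8 and CXCL1 with 4 copies lie lowest.

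The transcriptional side was described from promoter sequence, since these genes are known targets of NF-kB. The consensus searched was GGGRNWYYCC, where R is A or G, Y is C or T, W is A or T and N is any base. RefSeq promoters (GRCh38.p14, 250 bases before to 50 bases after the start) were found for 9 of the 10 genes, and 6 of them (CXCL1, CXCL2, CXCL3, CXCL5, IL6 and CCL20) matched the NF-kB consensus on either strand, beside 7.09% of all genes. CXCL5 carries the same 10 matched bases as CXCL1, CXCL2 and CXCL3. The matches of CXCL1, CXCL2 and CXCL3 are shown because the bases around them are also alike. A start position that matched on both strands was counted once. Each of these promoters held 2 matches. Capitals mark the first, and each sequence reads in the direction of its gene.
CXCL1, chr4:73869304-73869333, plus strand: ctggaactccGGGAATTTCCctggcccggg
CXCL2, chr4:74099254-74099283, minus strand: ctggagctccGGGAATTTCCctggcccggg
CXCL3, chr4:74038749-74038778, minus strand: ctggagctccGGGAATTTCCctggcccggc
No match to the consensus was found in the windows of IL8, IL1A and IL1B. Sites that depart from the consensus were not searched, so this does not show that these genes lack an NF-kB site.

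The genes of NF-kB itself were expressed throughout. All 15 subunits and feedback genes passed the filter, 12 were lower and 3 were higher, near the 79.9% of expressed symbols that were lower, and none reached 2-fold. RELA, the main activating subunit, had 56.1 FPKM in tdTom and 53.6 FPKM in TTP-tdTom. NFKBIA, an inhibitor that NF-kB induces, had 35.8 and 45.5 FPKM, a log2 fold change of 0.35. CHUK, a kinase that acts on NF-kB inhibitors, had 4.39 and 2.61 FPKM, a log2 fold change of -0.75. The list had a median of -0.13, above the median of all expressed symbols.

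Other ligands of the same families were mostly not expressed. Of 12 further CXC ligands in the table, CXCL6 and CXCL16 passed the filter and both were lower, beside 79.9% of expressed symbols, CXCL16 with 2.85 FPKM in tdTom and 2.25 FPKM in TTP-tdTom. Of 27 further CC, C and CX3C ligands, CCL5 and CCL26 passed. CCL5, which attracts T cells, had 15.3 and 18.1 FPKM, the highest chemokine level in TTP-tdTom and a log2 fold change of 0.24. Of 22 chemokine receptors, 20 were below the filter, among them CXCR1 and CXCR2, the receptors for IL-8, and CCR6, the receptor for CCL20.

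The receptors and signaling proteins of the cytokines were better expressed. Of 17 IL-1 receptor and signaling genes 11 passed, of which 10 were lower and 1 higher, none by 2-fold. Of all expressed symbols 79.9% were lower, and the median log2 fold change was -0.22 for the list and -0.24 for all. IL1RAP, the accessory chain of the IL-1 receptor, had 6.42 FPKM in tdTom and 3.37 FPKM in TTP-tdTom. IRAK2, a kinase of the same pathway, had 3.84 and 2.15 FPKM. MYD88, the adaptor, had 56.6 and 47.5 FPKM. IL18, the only other IL-1 family ligand that passed, had 21.6 and 17.5 FPKM. The IL-1 pathway genes named here were thus lower by less than 2-fold.

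The IL-6 family had 7 further ligands in the table, of which 4 passed, 3 lower and 1 higher. CLCF1, a ligand of the CNTF receptor, had 5.26 FPKM in tdTom and 3.09 FPKM in TTP-tdTom. Of 8 receptors of the family 5 passed, 3 lower and 2 higher, with a median log2 fold change of -0.61. Beside them, 79.9% of expressed symbols were lower and their median was -0.24. IL6ST, which encodes gp130, the shared receptor of IL-6 and LIF, had 65.2 FPKM in tdTom and 42.7 FPKM in TTP-tdTom. LIFR, its partner for LIF, had 11.3 and 6.01 FPKM, a log2 fold change of -0.91. OSMR had 11.8 and 7.31 FPKM. IL6R, the IL-6 binding chain, went the other way at 3.16 and 4.13 FPKM. LIF and both of its receptor chains thus had the lower value in TTP-tdTom, none by 2-fold, and the log2 fold change of LIF relative to the median of all symbols was -0.21.

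**Figure D5:**
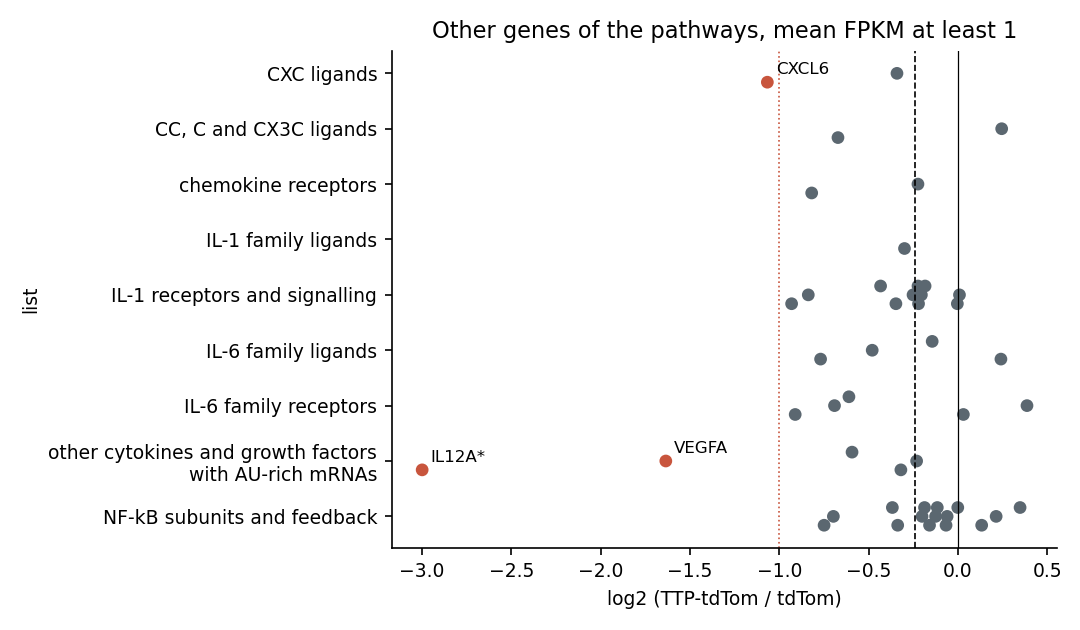
Log2 fold change (TTP-tdTom over tdTom) of the expressed genes of 9 lists, members of the 10 left out, 1 point per gene; the dashed line is the median of all expressed symbols and the dotted line marks 2-fold lower. Of 47 genes, CXCL6, VEGFA and IL12A lie beyond 2-fold lower and none beyond 2-fold higher; the asterisk marks IL12A as read on the strand opposite to the gene.

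A further list held 14 cytokine, growth factor and related genes that were taken as having AU-rich mRNAs. Motif counts are given here for the 10 members only and not for this list. Of the 14, 5 passed and all 5 were lower, beside 79.9% of expressed symbols. VEGFA, the angiogenic growth factor, had 10.7 FPKM in tdTom and 3.45 FPKM in TTP-tdTom, a log2 fold change of -1.64, close to that of CXCL1. IL12A had 1.89 and 0.236 FPKM on a row opposite to the gene, and passed the filter only through tdTom. CSF1 had 1.75 and 1.16 FPKM, and TGFB1, the most abundant, had 203 and 173 FPKM. Over all 9 lists, which exclude the 10 genes, 131 genes were in the table and 47 were expressed. Of these, 39 were lower and 8 higher, and 3 were at least 2-fold lower. The shares of all expressed symbols were 79.9% lower and 8.3% at least 2-fold lower. Like IL12A, CXCR6, CCRL1 and CCL26 passed the filter only through tdTom, which partly fixes their direction in these counts. IL12A was no longer among the 3 when each gene was read on its own strand. CXCL6 was not among them when centred on the median, with the same upper quartile or with a pseudocount of 1. The median of the 47 genes was -0.23, against -0.24 for all expressed symbols. The rows of 3 of these 47 genes (CNTF, NFKBIZ and IL18BP) also carry another symbol, whereas no row of the 10 genes does.

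With 1 value per group, the pattern of a gene over the groups is its fold change. The 5 gene symbols with at least 10 FPKM in tdTom, out of 5889, whose log2 fold change was nearest to that of IL8 were SNORD88B, LOC493754, CAPS2, PHLDA2 and SNORD116-20, with absolute differences of 0.006 to 0.189. PHLDA2, an imprinted growth regulator, had 97.6 FPKM in tdTom and 19.6 FPKM in TTP-tdTom. SNORD88B and SNORD116-20 are small nucleolar RNAs, and the row of SNORD116-20 carries 8 symbols.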

How the data were processed

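RNA was sequenced from 6 PC-3 samples, 3 tdTom and 3 TTP-tdTom, in a strand-specific 75-base paired-end run. The submitters' processing notes name TopHat2 2.0.13 and Cufflinks 2.2.1, and the alignment was to Hs37D5 (GRCh37 with decoy sequence). The deposited table holds FPKM values that the authors computed with Cufflinks for 406165 loci, 1 per group, with samples pooled. Its columns of the authors' own comparison (log2 fold change, test statistic, p-value, q-value and significance) were not used. No other column of sample values was left unmapped. Because the table gives no value per sample, the planned model on samples was not run.

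For each symbol the row with the most RefSeq names was used, then the one with the highest FPKM sum. Log2 ratios were taken with no pseudocount, a symbol at 0 in a group was left out, and symbols with a mean of at least 1 FPKM were kept. Scripts, checked on simulated data, ran in Python 3.11.15 with numpy 2.4.6, pandas 2.3.3, Biopython 1.88 and matplotlib 3.10.9. Motifs were counted in the longest 3′UTR of a gene. The genes named are the 10 members, list genes with a mean of at least 1 FPKM, neighbors within 1000000 bases and the 5 symbols nearest to IL8 in fold change. ZFP36 is named as the check of the labels and CDH1 and PTPRC as cell type markers. CXCR1, CXCR2 and CCR6 are named without values as receptors, and EIF4A1 for its row. Members and lists were chosen with earlier results of these data known. Alternatives changed the pseudocount, the filter, the row, the scaling and the fold. The labels state the depth aimed for, but the table gives no read counts, so no interval is given.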

Additional observations from a re-analysis of the deposited data

Results flagged for a closer look

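Values at the loci of the 10 genes also appeared on rows that the comparisons above did not use. An additional row carrying the symbol IL1B, on the strand opposite to the gene, was at 0 in tdTom and had 1.10 FPKM in TTP-tdTom, the direction opposite to that of both other IL1B rows. Within the span of LIF, on its strand, a row without a symbol had 0.245 FPKM in tdTom and 1.23 FPKM in TTP-tdTom, whereas LIF itself had the lower value in TTP-tdTom. Of 4 other such rows in the span of LIF, 2 were lower in TTP-tdTom by more than 2-fold. They had 1.74 FPKM in tdTom and 0.764 in TTP-tdTom, and 1.81 and 0.659 FPKM. The others had log2 fold changes of -0.08 and 0.09. The IL1B value and the first LIF value are near the level of rows opposite to genes, and neither difference was tested.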

How the results depend on the processing

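No paired analysis was possible because the table holds 1 pooled value per group, and for the same reason no fit with a replicate block and no fit without single replicates was run. IL8 kept log2 fold changes between -2.38 and -1.98 and CXCL1 between -1.70 and -1.30 over 10 settings. Each of these genes has 1 row and a mean above 5 FPKM, so the filter and row settings could not move them. Only the pseudocounts and the scalings could. The scalings shifted every log2 fold change by 0.24 (median), 0.05 (same sum) or 0.40 (upper quartile). The median of the members, -0.66 as reported, was -0.61 with a pseudocount of 0.1, -0.36 with a pseudocount of 1, -0.84 with no filter, -2.04 with a mean of at least 5 FPKM, -0.56 with rows summed, -0.42 when centred on the median, -0.61 with the same sum and -0.26 with the same upper quartile. On the gene's own strand, an alternative chosen after seeing the data, it was -0.56. Members at least 2-fold lower numbered 5 with no filter and 2 or 3 under the other settings. With other thresholds, 4 were at least 1.5-fold lower and 2 at least 3-fold lower, beside 22.7% and 1.255% of expressed symbols. The 2-fold share of all symbols counted ran from 2.27% with the same upper quartile to 9.54% with a mean of at least 5 FPKM. Genes of the other lists at least 2-fold lower numbered 3 of 47 as reported and 8 of 118 with no filter. They numbered 1 of 26 with a mean of at least 5 FPKM and 5 of 53 with rows summed. The shares of all symbols were 8.3%, 8.52%, 9.54% and 8.35% in that order. The number was 2 with a pseudocount of 1, when centred on the median and with the same upper quartile, where CXCL6 dropped out. It was also 2 on the gene's own strand, without IL12A, and at 3-fold. At 1.5-fold it was 14 of 47. List genes at least 2-fold higher numbered 1 with either pseudocount, 17 with no filter and 3 with rows summed, against 0 as reported. IL1A was at least 2-fold lower only as reported, with no filter, with the row of highest sum and, at a lower threshold, at 1.5-fold. Motif counts were the same in the longest transcript. The cause of these differences was not tested beyond the settings themselves.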
